A study of Mus musculus with 9 samples.

Results

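Long-term hematopoietic stem cells (LT-HSCs) from mice that lack Pik3cd in the germline (δKO) were compared with LT-HSCs from wild-type controls (WT). The comparison uses 6 of the 9 RNA-seq libraries of the study, the 3 δKO and the 3 WT libraries, which were chosen by the genotype named for each library. The third group of the study, which also lost Pik3ca and Pik3cb (TKO), is not compared here, but its libraries entered the fit and so bear on the estimate of the spread and on which genes had enough counts to be tested. The question is which genes differ in LT-HSCs when p110δ alone has been lost.

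δKO donors were Pik3ca lox/lox;Pik3cb lox/lox;Pik3cd-/- without a Cre transgene, and WT donors were wild type with Mx1-Cre. The groups therefore differ in the Pik3cd null allele, in both floxed alleles and in the Cre transgene, and these cannot be told apart. Mx1-Cre is driven by an interferon-responsive promoter and is switched on by poly(I:C) (pIpC) through interferon, in other cells of the body as well as in HSCs. Bone marrow of C57BL/6 donors was transplanted into lethally irradiated B6.SJL mice, and all recipients, those of δKO marrow included, received 250 μg of pIpC in a pair of injections 48 hours apart. LT-HSCs of donor origin were sorted 4 weeks later as lineage-negative cells with cKit, Sca1 and CD150 and without Flk2 and CD48. According to the methods, marrow of the 7 recipients in a group was pooled before sorting, whereas the labels list biological replicates with 2 technical runs each. Xist ranged from 32.1 to 5340 CPM (counts scaled to library size) within WT and from 59.5 to 6393 CPM within δKO, which equal parts of a single pool would not give. What the replicates are was therefore not settled, and the p-values measure the spread between these libraries, which may be in part technical. One δKO library carries a number in the count table that no label has, and it is called the unnumbered δKO library.

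Class I phosphoinositide 3-kinases (PI3Ks) relay signals from growth factor and cytokine receptors. A catalytic subunit (p110α, p110β, p110δ or p110γ) is held by a regulatory subunit and makes the membrane lipid PIP3, which recruits AKT and, through it, activates mTOR and holds FoxO transcription factors out of the nucleus. p110δ, the product of Pik3cd, is found mainly in blood cells. In HSCs this pathway takes part in the balance between quiescence, cycling and lineage output, and HSCs can use more than one catalytic subunit.

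Gene counts summed to 31300343 in the shallowest library and to 60386097 in the deepest. The WT libraries detected 21616 to 22446 genes and resembled each other closely, with Pearson correlations of log2 CPM across genes of 0.954 to 0.957. The δKO libraries were less alike, with correlations of 0.835 to 0.916. δKO replicate 2 was closer to the WT libraries (0.949 to 0.962) than to δKO replicate 1 (0.871) and the unnumbered δKO library (0.916). δKO replicate 1 detected 18180 genes and the unnumbered δKO library 18500, against 22038 in δKO replicate 2. In δKO replicate 1, 531 genes were more than 4-fold above each of the other 5 libraries and 515 were more than 4-fold below, where the 3 WT libraries had 15 to 50 and 1 to 4 such genes, δKO replicate 2 had 29 and 3, and the unnumbered library 173 and 97. Xist was at 4910 CPM or more in 1 WT library (WT replicate 2) and 2 δKO libraries (replicates 1 and 2) and at 59.5 CPM or less in the other 3. Ddx3y, a Y-linked gene, went the other way. It was at 0.359 CPM or less where Xist was high and at 30.5 CPM or more where Xist was low. By these genes 1 of 3 WT and 2 of 3 δKO libraries read as female, and sex was not a term in the main fit. The summed CPM of 12 neutrophil markers was 9726 in WT replicate 3 and 121 to 1768 elsewhere. Where a result leans on δKO replicate 1 or WT replicate 3, its value without that library is given in many cases beside it. The median of 14 of the 27 pathway lists described below changed sign without δKO replicate 1.

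A single gene passed the test. Zfp990, a zinc finger gene in a cluster of related genes on chromosome 4, was higher in δKO LT-HSCs by 6.33 ± 0.49 on the log2 scale (SE; adjusted p = 0.000564, edgeR quasi-likelihood test with Benjamini-Hochberg adjustment). A call required a change of over 2-fold with an adjusted p below 0.05, and Zfp990 was the only one among 18205 tested genes (0.00549%). No gene was called lower. At an unadjusted p under 0.05 there were 664 genes higher in δKO (3.65%) and 612 lower (3.36%), and after Zfp990 the smallest adjusted p was 0.699. Without δKO replicate 2 these counts were 1454 and 1628 (16.1% of tested genes together, against 7.01%), and without WT replicate 3 they were 355 and 408. With upper-quartile scaling, which shifts the median of all genes by -0.15 on the log2 scale, 34.1% of the genes at an unadjusted p under 0.05 were the higher ones, where the main scaling gave 52%. The median log2 change over all genes was 0.05.

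Zfp990 was at 0.537 CPM in WT replicate 1, 0.36 CPM in WT replicate 2 and 0.669 CPM in WT replicate 3, from 32, 19 and 28 reads. It was at 60.2 CPM in δKO replicate 1, 35.5 CPM in δKO replicate 2 and 31.0 CPM in the unnumbered δKO library, from 1509, 1994 and 842 reads. The lowest δKO library was thus far above the highest WT library. The means were 0.522 ± 0.155 CPM in WT and 42.2 ± 15.7 CPM in δKO (SD, n = 3), a fitted change of 80.7-fold. The call held with each library left out in turn, where the log2 change ranged from 5.99 to 6.54 and the adjusted p from 0.000219 to 0.0129. It was lost in edgeR when only the 6 libraries were fitted (log2 change 6.33, adjusted p = 0.0578) and when those 6 were fitted without δKO replicate 1 (5.99, adjusted p = 0.0516).

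**Figure D1:**
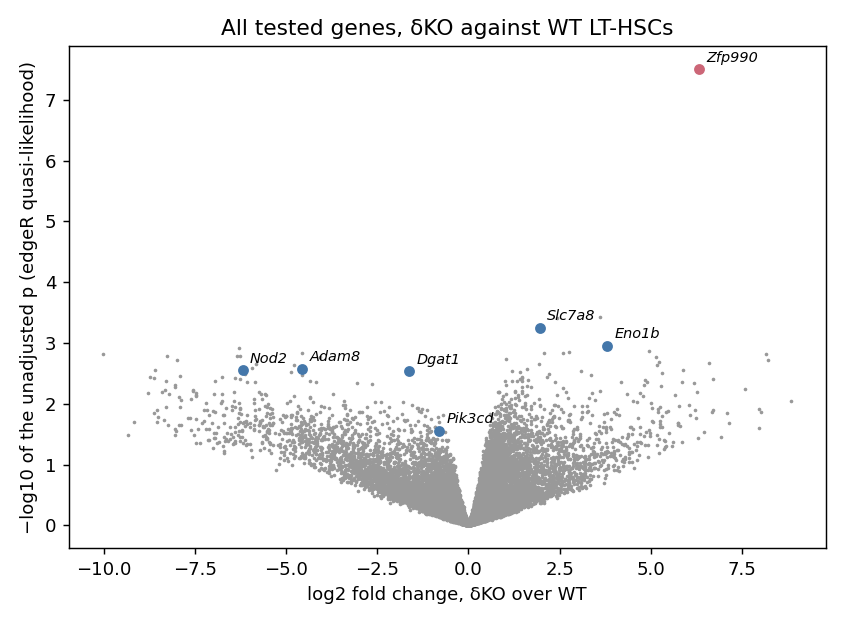
Log2 fold change of δKO over WT (x axis) and −log10 of the unadjusted p from edgeR's quasi-likelihood test (y axis) for the 18205 tested genes, one point per gene. Zfp990 stands apart at a log2 change of 6.33; Pik3cd and 5 other named genes lie within or at the edge of the cloud of all genes.

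Zfp990 (ENSMUSG00000078503.9) lies at chr4:145510759-145539188 on the plus strand of GRCm38 (mm10). Its neighbours in the cluster have similar sequences, so exact matches between its transcript and the annotated transcripts of other genes were counted. Its longest annotated transcript (3044 bases, 5 exons) holds 2995 windows of 50 bases. Of these, 808 (27.0%) also occur in a transcript of another gene, most often Zfp534 (391 windows) and Zfp986 (329). The other 73.0% occur in no annotated transcript of another gene. Reads were not realigned and their length is not given in the sources used here, so how well reads were assigned was not tested. The stretch below is shown because it holds both kinds of sequence. It is coding sequence in exon 5 (chr4:145537167-145537316, plus strand, GENCODE annotation of GRCm38), with the 133 bases in capitals that lie in no shared window.

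Zfp990: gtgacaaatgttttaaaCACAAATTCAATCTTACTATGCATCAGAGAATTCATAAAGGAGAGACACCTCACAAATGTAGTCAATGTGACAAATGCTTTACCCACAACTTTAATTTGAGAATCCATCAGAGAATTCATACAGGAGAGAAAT

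The related gene with the most shared windows did not show the same levels. Zfp534 was at 0.101 to 0.417 CPM in WT and 0.332 to 1.91 CPM in δKO, with overlapping groups (log2 change 2.26, unadjusted p = 0.101). Among the other annotated Zfp genes of this cluster, Zfp985 was at 0.319 to 0.454 CPM in WT and 0.878 to 1.03 CPM in δKO, and Zfp982 at 0.924 to 1.91 CPM in WT and 0 to 0.239 CPM in δKO. Zfp985 and Zfp982 did not pass the test (adjusted p = 0.786 and 0.699). Of 12 tested Zfp genes within 10 Mb of Pik3cd, looked at after their values were seen, 7 separated the groups, where 11.5% of all tested genes and 17.2% of those within 10 Mb did. Of the 7, 4 were higher in δKO (Zfp990, Zfp984, Zfp985 and Zfp988) and 3 lower (Zfp982, Zfp991 and Zfp993). Zfp988, which shares 301 windows with Zfp990, was at 0.0504 to 0.167 CPM in WT and 0.258 to 0.439 CPM in δKO (log2 change 1.39, adjusted p = 0.812). Gm21411, which shares 102 windows with Zfp990 and is described below, was also higher in δKO without overlap.

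Pik3cd itself was still represented by reads in δKO LT-HSCs. It was at 139 CPM in WT replicate 1, 98.2 CPM in WT replicate 2 and 112 CPM in WT replicate 3. It was at 38.5 CPM in δKO replicate 1, 91.2 CPM in δKO replicate 2 and 71.1 CPM in the unnumbered δKO library. All 3 δKO libraries lay below all WT libraries, but δKO replicate 2 came close to the lowest WT library. The log2 change was -0.80 ± 0.32 (SE, unadjusted p = 0.0276, adjusted p = 0.699), and without δKO replicate 1 it was -0.52 (unadjusted p = 0.0596). The part of the gene that the null allele removes is not given in the sources used here, and gene-level counts do not show whether these reads could encode p110δ. The level of Pik3cd therefore checks the genotype labels only in its direction.

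The other catalytic subunits showed no difference beyond the spread between libraries. Pik3ca, which encodes p110α and is floxed but without Cre in δKO, was at 65.0, 60.6 and 45.8 CPM in the WT libraries and at 88.2, 41.3 and 48.0 CPM in the δKO libraries (log2 change 0.05 ± 0.33, adjusted p = 0.986). Pik3cb, which encodes p110β and is floxed in the same mice, was at 63.6, 44.6 and 60.4 CPM in WT and at 101, 33.2 and 68.7 CPM in δKO (0.27 ± 0.38, adjusted p = 0.906). The sign of both small differences turned when δKO replicate 1 was left out (-0.36 and -0.14). Pik3cg, which encodes the G protein-regulated p110γ, was at 214, 122 and 165 CPM in WT and at 425, 162 and 231 CPM in δKO (0.71 ± 0.35, unadjusted p = 0.0657), with the highest value again in δKO replicate 1 and a log2 change of 0.24 without it.

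Among the regulatory subunits, Pik3r2 (p85β) was the one whose groups did not overlap. It was at 5.93, 8.57 and 14.9 CPM in the WT libraries and at 48.0, 16.4 and 15.5 CPM in the δKO libraries (log2 change 1.44 ± 0.60, adjusted p = 0.699). The values of δKO replicate 2 and the unnumbered library lay close to WT replicate 3, and without δKO replicate 1 the log2 change was 0.70 (unadjusted p = 0.215). Pik3r2 exons overlap a gene on the other strand, and no strand setting is given, so the reads of these genes cannot be told apart. Pik3r1, which encodes p85α and its shorter forms, was at 219 to 259 CPM in WT and 222 to 653 CPM in δKO (0.78, unadjusted p = 0.0414), and at 0.22 without δKO replicate 1.

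The p110γ partners Pik3r5 and Pik3r6 and the p55γ gene Pik3r3 overlapped between the groups. Pik3r5 was at 15.9 to 18.3 CPM in WT, and in δKO it was at 0.519 CPM in replicate 1, 23.9 CPM in replicate 2 and 4.24 CPM in the unnumbered library. Compared per length, in CPM per kilobase of exon (RPKM), the mean levels in WT were 23.02 for Pik3r1, 19.8 for Pik3cg, 18.6 for Pik3cd, 7.81 for Pik3cb, 6.29 for Pik3ca, 3.14 for Pik3r5, 2.35 for Pik3r2, 1.38 for Pik3r6 and 0.544 for Pik3r3. In δKO the RPKM order had Pik3cd (10.7) below Pik3r1 (39.5) and Pik3cg (32.4) and next to Pik3cb (9.41). The WT libraries of Pik3r1, Pik3cg and Pik3cd overlapped on this scale, as did those of Pik3cb and Pik3ca. The median log2 change of the 9 subunit genes was 0.05, and for each of the 9 δKO replicate 1 was the highest or the lowest δKO library.

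**Figure D2:**
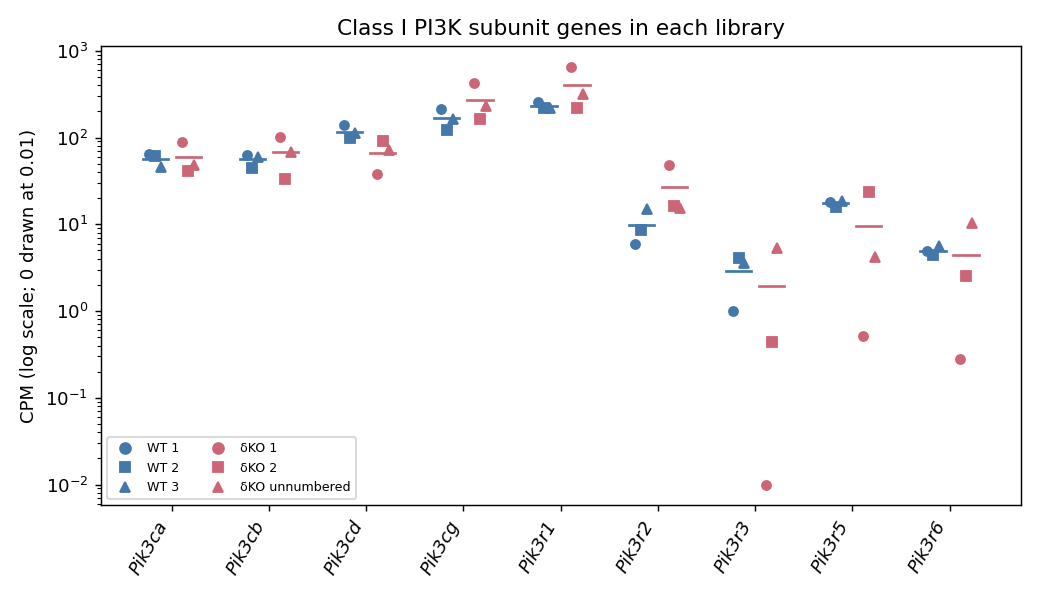
CPM (y axis, log scale) of the 9 class I PI3K subunit genes in each WT (blue) and δKO (red) library, with horizontal lines at the group means of 3 libraries. Pik3cd and Pik3r2 are the genes whose groups do not overlap, and δKO replicate 1 (circle) is the highest or lowest δKO library for each of the 9 genes.

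Downstream of PI3K, 3 lists were examined: 17 tested phosphatases and adaptors, 21 genes of the AKT and mTOR pathway, and 31 FoxO factors and targets. Their median log2 changes were 0.09, 0.17 and 0.05, beside 0.05 for all genes, and without δKO replicate 1 they were -0.16, -0.08 and 0.04. At an unadjusted p under 0.05 they held 1, 1 and 3 genes (5.88%, 4.76% and 9.68% of each list, where all genes gave 7.01%). Foxo1, a FoxO factor that AKT restrains, was at 20.7 to 29.4 CPM in WT, and in δKO at 187 CPM in replicate 1, 32.5 CPM in replicate 2 and 25.9 CPM in the unnumbered library. One library sets this difference, since the log2 change was 1.71 with δKO replicate 1 and 0.23 without it. Phlpp1, a phosphatase that removes phosphate from AKT, showed the same (132 CPM in δKO replicate 1, 10.3 and 28.1 CPM in the others, 15.7 to 20.8 CPM in WT), with 1.66 and 0.10.

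Akt2 was more even. It was at 102, 79.0 and 92.8 CPM in WT and at 172, 120 and 108 CPM in δKO, so that the groups did not overlap (log2 change 0.55 ± 0.25, adjusted p = 0.699, and 0.33 without δKO replicate 1). Pink1, a kinase that marks damaged mitochondria for removal, was at 47.1, 31.7 and 41.7 CPM in WT and at 10.2, 13.6 and 27.9 CPM in δKO (-1.22 ± 0.46, adjusted p = 0.699). Txnip, a FoxO-linked inhibitor of glucose uptake, was at 52.5 to 101 CPM in WT and 98.0 to 238 CPM in δKO and overlapped (0.93, unadjusted p = 0.0351, and 0.46 without δKO replicate 1).

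Transcripts of the sorting marker genes were counted in every library, those of the gated-out Flt3 and Cd48 included. The levels of these RNAs therefore do not show the gate. Kit was at 471 to 500 CPM in WT and 429 to 949 CPM in δKO, and Ptprc, which encodes CD45, at 191 to 256 CPM and 204 to 583 CPM. Slamf1 (CD150) was at 25.2 to 47.3 CPM in WT and 16.4 to 137 CPM in δKO. Ly6a (Sca-1) was at 20.1 to 28.3 CPM in WT and at 2.15, 20.4 and 10.2 CPM in the δKO libraries. Flt3 and Cd48, whose products were gated out, were at 27.0 to 115 CPM and 18.3 to 23.2 CPM in WT and at 7.06 to 55.2 CPM and 5.82 to 21.1 CPM in δKO. These 6 genes overlapped between the groups and none was at an unadjusted p under 0.05. In bulk RNA, fewer cells of a type and less RNA per cell cannot be told apart.

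Of 45 tested HSC genes, 34 were above 0 and 11 below, with a median log2 change of 0.36, and 3 were at an unadjusted p under 0.05, all higher in δKO (6.67%, where 3.65% of all genes were higher and 7.01% differed in either direction at that p). None was called. Without δKO replicate 1 the median was -0.16, with 1 gene higher and 4 lower at that p (11.1%, where all genes in the same refit gave 5.65%). The shorter list of 12 long-term HSC markers had all members above 0 (median 0.52), but without δKO replicate 1 there were 7 above 0 and 5 below (median 0.23), with 1 higher and 1 lower at an unadjusted p under 0.05 (16.7%, where all genes in that refit gave 5.65%).

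Tie1, an orphan receptor that partners Tek, had the smallest p of the HSC genes. It was at 25.5, 39.0 and 37.0 CPM in the WT libraries and at 86.6, 61.4 and 59.97 CPM in the δKO libraries. Every δKO library was above every WT library, and the log2 change was 1.04 ± 0.30 (unadjusted p = 0.00492, adjusted p = 0.699), or 0.85 without δKO replicate 1. Tek, the angiopoietin receptor of quiescent HSCs, was at 11.99, 20.2 and 26.2 CPM in WT and at 61.3, 30.8 and 30.6 CPM in δKO (1.07 ± 0.42, adjusted p = 0.699, and 0.66 without δKO replicate 1). Hoxb5, a marker of long-term repopulating cells, was at 2.39, 7.11 and 4.04 CPM in WT and at 28.1, 8.41 and 17.8 CPM in δKO (2.00 ± 0.74, adjusted p = 0.699, and 1.54 without that library). An antisense gene overlaps Hoxb5. Procr, which encodes the HSC marker EPCR, did not separate the groups (38.4 to 55.0 CPM in WT, and 132, 17.3 and 14.1 CPM in δKO).

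Of 20 tested lymphoid and multipotent progenitor genes, 13 were below 0, with a median log2 change of -0.47 and -0.32 without δKO replicate 1. Il12a, a cytokine subunit, was at 33.5, 16.7 and 23.3 CPM in WT and at 7.94, 16.6 and 4.20 CPM in δKO, so that δKO replicate 2 nearly met the lowest WT library (-1.35 ± 0.58, adjusted p = 0.699). Notch1, a receptor of T lineage specification, was at 40.2 to 84.1 CPM in WT and at 88.4, 53.5 and 233 CPM in δKO (1.10, unadjusted p = 0.041). The highest of these values came from the unnumbered δKO library, without which the log2 change was 0.28. For 22 myeloid progenitor genes the median was -0.01, and it was 0.46 without δKO replicate 1. For 23 megakaryocyte priming genes it was 0.16 and 0.17, and no member of either list was at an unadjusted p under 0.05 when all libraries were used.

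The neutrophil markers moved with one WT library. All 12 were below 0 in δKO (median log2 change -1.998), and 2 were at an unadjusted p under 0.05 (16.7%, where 3.36% of all genes were lower at that p). Their sum was 526, 1070 and 9726 CPM in WT replicates 1, 2 and 3 and 121, 814 and 1768 CPM in δKO replicate 1, replicate 2 and the unnumbered library, led by Ngp, a granule protein gene. Leaving out WT replicate 3 moved the median to 0.02. Markers of other blood lineages summed to smaller ranges: 530 to 1190 CPM in WT and 205 to 682 CPM in δKO for 12 monocyte and macrophage markers, 8.62 to 64.5 and 9.29 to 30.7 CPM for 10 erythroid markers, 35.6 to 158 and 17.2 to 44.2 CPM for 12 B cell markers, and 4.46 to 9.93 and 2.54 to 51.8 CPM for 12 T and NK cell markers. Megakaryocyte and platelet markers (10 genes) summed to 149 to 390 and 225 to 344 CPM, endothelial markers (10 genes, led by Vwf, which HSCs also express) to 190 to 416 and 360 to 459 CPM, and stromal markers (10 genes) to 13.6 to 22.9 and 8.78 to 15.96 CPM. Plasmacytoid dendritic cell markers (8 genes) summed to 311 to 438 and 321 to 396 CPM, and mast cell and basophil markers (10 genes, led by Gata2, also an HSC gene) to 330 to 402 and 271 to 605 CPM. With the summed neutrophil markers as a covariate, Zfp990 was again the called gene (log2 change 6.19), and 284 genes were higher and 387 lower at an unadjusted p under 0.05, against 664 and 612 without it. The part of the other marker lists in the results was not tested.

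The medians of the autophagy, lysosome and oxidative phosphorylation lists lay near that of all genes, while single members ranged from -1.70 to 1.26, from -0.96 to 1.37 and from -0.85 to 0.93. Of 38 autophagy genes, 21 were above 0 and 17 below, with a median log2 change of 0.08 (-0.09 without δKO replicate 1), and none was at an unadjusted p under 0.05. Atg101, a subunit of the complex that starts autophagosome formation, was at 13.5 to 14.4 CPM in WT and 5.70 to 7.22 CPM in δKO. Gabarapl1, of the family that coats autophagosomes, was at 85.8 to 102 CPM in WT and 112 to 153 CPM in δKO. These 2 of 38 were the autophagy genes whose groups did not overlap, a smaller share than the 11.5% of all tested genes. They were named after their values were seen, and their unadjusted p was 0.0795 and 0.135. Of 51 lysosome genes, 3 were at an unadjusted p under 0.05, all higher in δKO (5.88%, where 3.65% of all genes were higher and 7.01% differed in either direction at that p), and the median was 0.07. Ctsc, a lysosomal protease that activates granule serine proteases, was at 47.0, 46.4 and 24.9 CPM in WT and at 84.4, 52.7 and 110 CPM in δKO (1.06 ± 0.38, adjusted p = 0.699), with 1.04 when δKO replicate 1 was left out. Over all alternatives run, the log2 change of Ctsc ranged from 0.40 to 1.31.

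The V-ATPase subunit gene Atp6v0a1 and the sulfatase-activating enzyme gene Sumf1 overlapped between the groups (log2 changes 1.35 and 1.37, and 0.78 and 0.56 without δKO replicate 1). In δKO replicate 2 they were at 23.4 and 16.4 CPM, below every WT library. For 40 oxidative phosphorylation genes the median was 0.04. Ndufs3, a complex I subunit gene, was at 17.9, 19.6 and 17.4 CPM in WT and at 33.5, 32.3 and 38.7 CPM in δKO, with a log2 change of 0.93 ± 0.36 (adjusted p = 0.699) and of 0.96 without δKO replicate 1. The groups did not overlap, but a gene on the other strand (Kbtbd4) shares exonic sequence with Ndufs3. Sdha, a complex II subunit gene, was at 186 to 285 CPM in WT and 247 to 681 CPM in δKO and overlapped (0.86, unadjusted p = 0.033, and 0.28 without δKO replicate 1).

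The lists on cell cycle and interferon response gave no called gene either. The median log2 change with all libraries and without δKO replicate 1 was 0.08 and 0.27 for 30 mitosis genes, 0.13 and -0.003 for 32 DNA replication genes, and -0.04 and 0.02 for 13 CDK inhibitors and D cyclins. The pocket protein gene Rbl2, whose product represses cell cycle genes in quiescence, was at 103, 96.5 and 93.5 CPM in WT and at 146, 125 and 173 CPM in δKO. Its groups did not overlap (0.60 ± 0.24, adjusted p = 0.699), and other genes overlap it on the opposite strand. For 34 type I interferon-stimulated genes the median was 0.12 and none was at an unadjusted p under 0.05, while without δKO replicate 1 the median was -0.45 with 3 genes lower at that p (8.82%, where 2.74% of all genes in the same refit were lower). For 17 interferon-inducible GTPases it was 0.19, and -0.24 without δKO replicate 1. The GTPase gene Gbp2 was at 14.0, 26.7 and 22.9 CPM in WT and at 6.10, 13.9 and 8.88 CPM in δKO (-1.14 ± 0.45, adjusted p = 0.699).

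The other lists are given by their median log2 change, first with all libraries and then without δKO replicate 1. Those that turned sign were 41 ribosomal protein genes (0.06 and -0.02), 28 glycolysis and hypoxia genes (0.14 and -0.006), 27 p53 targets and apoptosis genes (-0.15 and 0.07) and 18 erythroid genes (0.33 and -0.77). Those that did not were 28 cholesterol synthesis genes (-0.003 and -0.13), 22 MHC and antigen presentation genes (-0.008 and -0.25), 33 cytokine and growth factor receptors (-0.02 and -0.11), 30 homing and adhesion genes (0.09 and 0.06), 33 immediate early and AP-1 genes (-0.25 and -0.34), 31 genes of the integrated stress and unfolded protein response (0.23 and 0.25) and 12 imprinted growth regulators (0.54 and 0.33). Among the members at an unadjusted p under 0.05, Asns, which makes asparagine and is a target of the integrated stress response, was at 19.1, 20.0 and 23.3 CPM in WT and at 8.06, 10.5 and 11.1 CPM in δKO (-1.07 ± 0.43, adjusted p = 0.699). Itga9, an integrin subunit gene, was at 5.71, 7.47 and 3.20 CPM in WT and at 0.16, 1.21 and 1.51 CPM in δKO (-2.50 ± 1.02, adjusted p = 0.699). Ankrd37, a hypoxia-inducible gene, was at 0.118 to 1.19 CPM in WT and at 0, 0 and 0.0369 CPM in δKO, near the limit of detection. The imprinted genes Mest and Sgce had their highest value in δKO replicate 1 (23.2 and 47.0 CPM) and overlapped between the groups, with log2 changes of 2.25 and 1.72 that were 0.58 and 0.78 without that library.

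**Figure D3:**
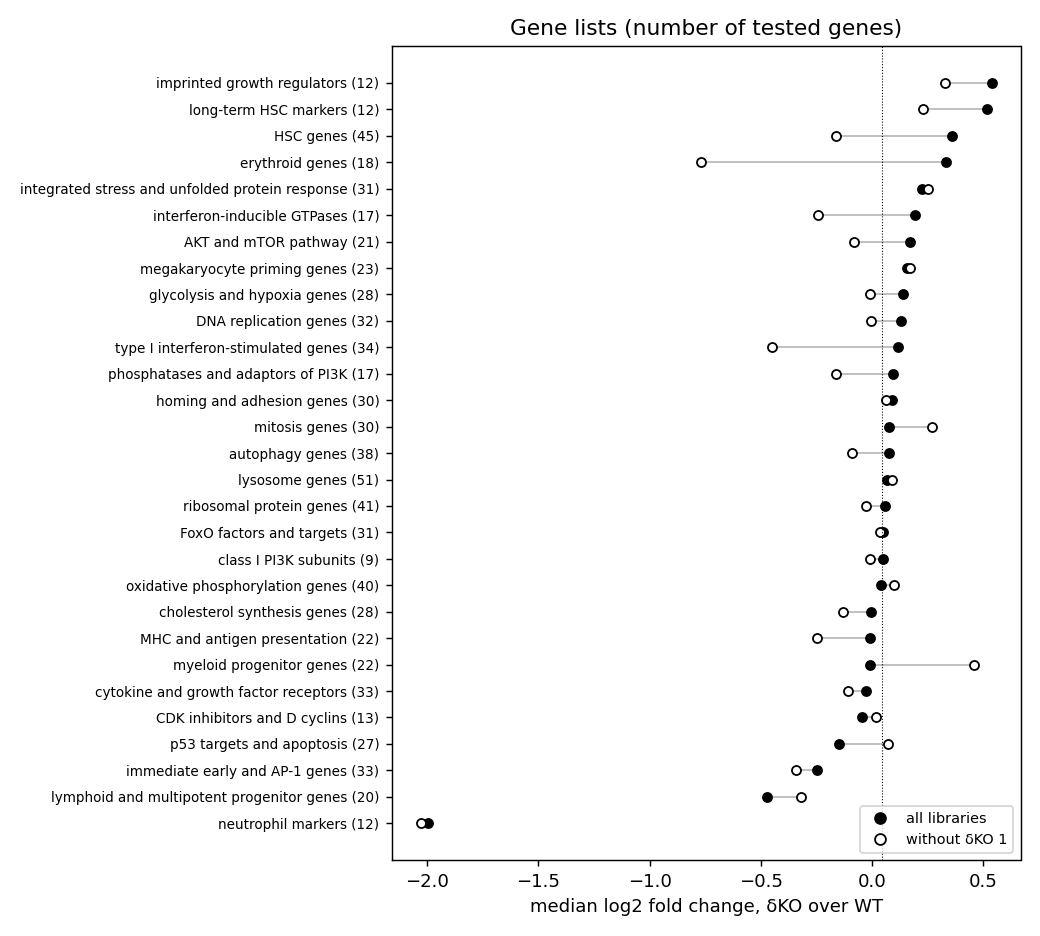
Median log2 change of δKO over WT (x axis) for each gene list (y axis, number of tested genes in brackets), with all libraries (filled) and without δKO replicate 1 (open); the dotted line is the median of all genes. The HSC list moves from 0.36 to -0.16 and the erythroid list from 0.33 to -0.77, while the neutrophil markers are at -1.998 and -2.03.

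Genes whose 3 δKO libraries all lay on one side of the 3 WT libraries numbered 752 higher (4.13% of tested genes) and 1345 lower (7.39%). δKO replicate 1 was the highest library for 433 of the 752 and the lowest for 821 of the 1345. Of the 1276 genes at an unadjusted p under 0.05, 513 (40.2%) were at that p with the same sign when δKO replicate 1 was left out. DESeq2 called 43 genes higher (0.243%) and 32 lower (0.181%) when all 9 libraries were fitted, and 27 higher (0.174%) and 24 lower (0.155%) on the 6 libraries. Both of these fits called 38 genes, 22 of them higher, and δKO replicate 1 was the highest library in 19 of the 22.

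Of the genes with a descriptive name that were higher in δKO without overlap and reached 5 CPM, the one with the smallest p after Zfp990 was Slc7a8, which encodes a neutral amino acid transporter. It was at 11.9, 12.1 and 18.4 CPM in WT and at 88.8, 28.5 and 48.7 CPM in δKO, a log2 change of 1.97 ± 0.42 (adjusted p = 0.699) that was 1.45 without δKO replicate 1. Evc2, a ciliary protein gene of Hedgehog signaling, was at 0.705, 1.88 and 1.91 CPM in WT and at 9.53, 7.76 and 13.3 CPM in δKO (2.77 ± 0.66, adjusted p = 0.699). Anpep, which encodes the myeloid surface peptidase CD13, was at 1.98, 5.20 and 1.62 CPM in WT and at 23.6, 15.3 and 14.9 CPM in δKO (2.61 ± 0.63, adjusted p = 0.699). Without δKO replicate 1 the log2 changes of Evc2 and Anpep were 2.81 and 2.36. DESeq2 on 9 libraries called these 3 genes (adjusted p = 0.00559 for Slc7a8, 0.000573 for Evc2 and 0.00165 for Anpep), as it did on 6 (0.0453, 0.00849 and 0.0117).

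Eno1b, an enolase gene, was at 0.588 to 0.823 CPM in WT and at 1.64, 15.8 and 11.0 CPM in δKO (3.80 ± 0.88, adjusted p = 0.699, and 4.30 without δKO replicate 1). Enolase genes share sequence, so the assignment of its reads is uncertain. Other genes varied more between the δKO libraries. Smagp, a small membrane protein gene, was at 113 CPM in δKO replicate 1 and at 7.52 and 6.23 CPM in the others, against 0.537 to 2.73 CPM in WT. Epha2, an ephrin receptor gene, was at 29.4, 1.26 and 5.97 CPM in δKO and 0.134 to 0.525 CPM in WT. Dync1i1 and Lrtm2 were at 0.16 and 0.499 CPM in δKO replicate 2, just above their highest WT values, and between 4.83 and 18.2 CPM in the other δKO libraries. Scarna2, a small Cajal body RNA, was at 206 to 345 CPM in WT and at 2371, 539 and 662 CPM in δKO. Leaving out δKO replicate 1 moved the log2 change from 4.97 to 2.35 for Smagp, from 5.19 to 3.43 for Epha2 and from 2.07 to 1.08 for Scarna2. DESeq2 on 9 libraries also called Eno1b, Epha2, Dync1i1, Lrtm2 and Scarna2 (adjusted p = 0.000698, 0.00126, 0.000698, 0.00728 and 0.0277). On 6 libraries it called Eno1b, Epha2 and Lrtm2 (0.00717, 0.00129 and 0.00258) but not Scarna2 (0.081), and it gave Dync1i1 no value. For Smagp, DESeq2 gave no adjusted p in either fit.

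The genes lower in δKO without overlap included Dgat1, which makes triglycerides, and C1qtnf12, which encodes a secreted C1q-related factor. Dgat1 was at 27.3, 23.5 and 37.7 CPM in WT and at 8.78, 12.6 and 7.30 CPM in δKO (log2 change -1.62 ± 0.43, adjusted p = 0.699). C1qtnf12 was at 5.85, 5.59 and 6.85 CPM in WT and at 0.479, 1.18 and 0.516 CPM in δKO (-3.06 ± 0.87, adjusted p = 0.699). Leaving out δKO replicate 1 gave -1.57 and -2.84. Nod2, a receptor for bacterial cell wall peptides, was at 6.99, 3.02 and 7.57 CPM in WT and at 0.0798, 0.142 and 0 CPM in δKO, and its log2 change was -6.18 ± 1.64 (adjusted p = 0.699) and, without WT replicate 3, -5.97. DESeq2 on 9 libraries called Dgat1, C1qtnf12 and Nod2 (adjusted p = 0.0135, 0.00225 and 0.00191), and on 6 libraries it called C1qtnf12 and Nod2 (0.00853 and 2.06e-05) but not Dgat1 (0.0544). It also called Osgin1 on 9 libraries (0.0251, and 0.0582 on 6) and Adam8 on 6 (0.00702, with no adjusted p on 9), both described next.

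Adam8, a protease gene of myeloid cells, was highest in WT replicate 3, the library with high neutrophil markers. It was at 3.06, 2.60 and 19.9 CPM in WT and at 0.16, 0.605 and 0.295 CPM in δKO, and its log2 change of -4.56 became -2.98 without that library (unadjusted p = 0.00263 and 0.04998). Cd33, a myeloid lectin gene, was at 14.4, 3.57 and 48.1 CPM in WT and at 0.239, 5.18 and 2.14 CPM in δKO, with -3.12 becoming -1.83. Osgin1, an oxidative stress response gene, was at 8.06 to 20.6 CPM in WT and 0.798 to 3.40 CPM in δKO (-2.64), and Dusp10, a phosphatase of p38 and JNK, at 10.7 to 31.7 CPM and 3.75 to 9.96 CPM (-1.80, and -1.43 without WT replicate 3, unadjusted p = 0.0612). The noncoding RNA gene Mirt1 was at 7.36 to 14.6 CPM in WT and 0.359 to 3.54 CPM in δKO, and Myh7b, a myosin heavy chain gene, at 5.18 to 13.1 CPM and 1.29 to 2.59 CPM. Exons of Adam8, Mirt1 and Myh7b overlap genes on the opposite strand, as do those of Foxo1, Txnip, Notch1, Gbp2, Ankrd37 and Mest above, and Pink1 and Pik3r3 overlap genes on their own strand, so their values are uncertain to that extent.

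**Figure D4:**
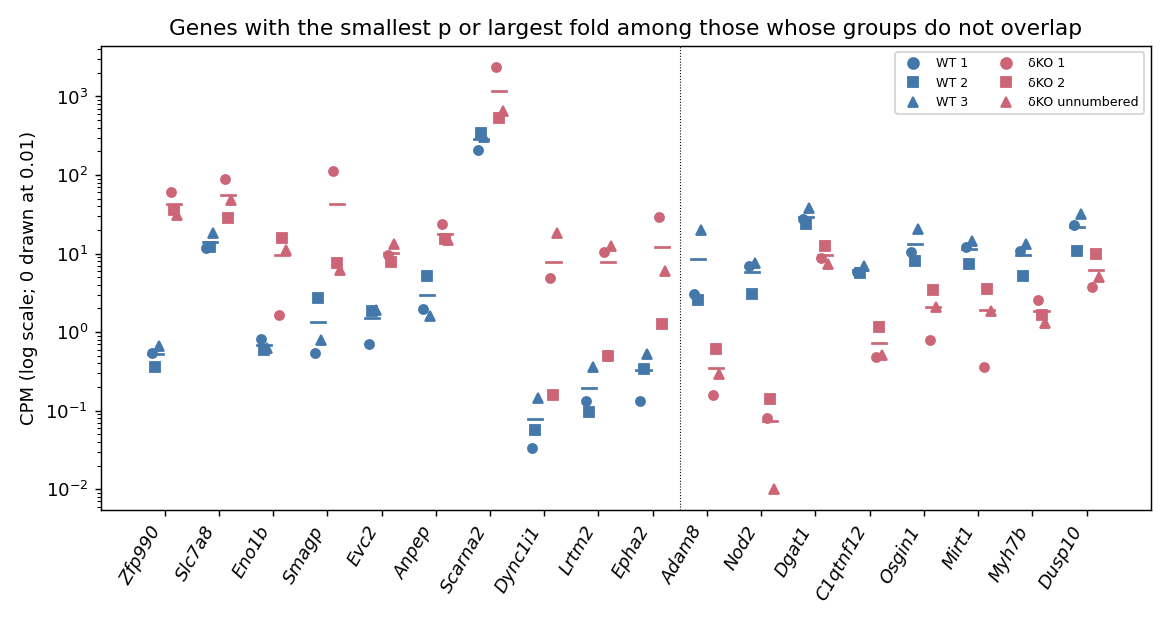
CPM (y axis, log scale, 0 drawn at 0.01) in each WT (blue) and δKO (red) library for 10 genes higher in δKO (left of the dotted line) and 8 lower (right), with horizontal lines at the means of 3 libraries. Only Zfp990 passed the test; for Smagp, Scarna2 and Epha2 the highest δKO value, in replicate 1, is well above the others.

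Genes close to Pik3cd can be inherited together with its null allele. According to the methods, the null line was backcrossed over multiple generations. How much flanking sequence came along with the allele was not tested. The tested genes within 10 Mb of Pik3cd on chromosome 4 were also described. Of 233 such genes, 40 (17.2%) separated the groups, 16 of them higher in δKO and 24 lower, where 11.4% of the genes elsewhere and 12.2% of the other tested genes on chromosome 4 did so. At an unadjusted p under 0.05, 14 were higher (6.01%) and 15 lower (6.44%), where genes elsewhere gave 3.62% and 3.32% and the rest of chromosome 4 gave 3.72% and 3.49%. Under other scalings and filters the shares that separated the groups were 15.4% to 18.9% near Pik3cd and 9.15% to 11.4% elsewhere. The median log2 change of the 233 genes was -0.03, so they did not lie to one side.

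Zfp990 was the one called gene of this region, at 4.14 Mb from Pik3cd. Gm21411, an uncharacterized protein-coding gene 2.76 Mb away, was at 0.0504, 0 and 0.167 CPM in WT and at 1.28, 2.67 and 2.58 CPM in δKO (log2 change 4.89 ± 1.39, adjusted p = 0.699). It shares sequence windows with Zfp990. Clcn6, an endolysosomal chloride exchanger gene 1.65 Mb away, was at 22.2, 29.7 and 49.5 CPM in WT and at 138, 58.7 and 84.4 CPM in δKO (1.47 ± 0.43, adjusted p = 0.699, and 1.08 without δKO replicate 1). The pseudogene Gm21978 was at 0 CPM in all WT libraries and at 0.0399, 0.0178 and 3.87 CPM in δKO, so 1 library set its difference.

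On the lower side, Fbxo44, a gene for the substrate-binding part of a ubiquitin ligase 1.5 Mb away, was at 2.57, 1.40 and 1.41 CPM in WT and at 0, 0.0178 and 0.0369 CPM in δKO (unadjusted p = 0.00377, adjusted p = 0.699). The pseudogene Gm13156 (0.454 to 0.967 CPM in WT) was at 0 to 0.0369 CPM in δKO. Slc45a1, a sugar transporter gene, was at 0.84, 1.59 and 3.87 CPM in WT and at 0.0798, 0.338 and 0.147 CPM in δKO (log2 change -3.43, and -2.64 without WT replicate 3, unadjusted p = 0.0564). Padi4, which encodes a histone citrullinating enzyme of neutrophils, was at 23.5, 31.9 and 52.8 CPM in WT and at 12.05, 11.97 and 23.4 CPM in δKO. Its log2 change was -1.19 with all libraries and -0.81 without WT replicate 3. Epha2 (8.35 Mb away) and C1qtnf12 (6.31 Mb away), described above, also lie in this region, and DESeq2 called both on 9 and on 6 libraries. It likewise called Fbxo44 in both fits (adjusted p = 0.041 and 0.0167) and Gm21411 on 9 libraries only (0.00225, and 0.0741 on 6). Whether the distance to the targeted gene takes part in these differences was not tested.

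**Figure D5:**
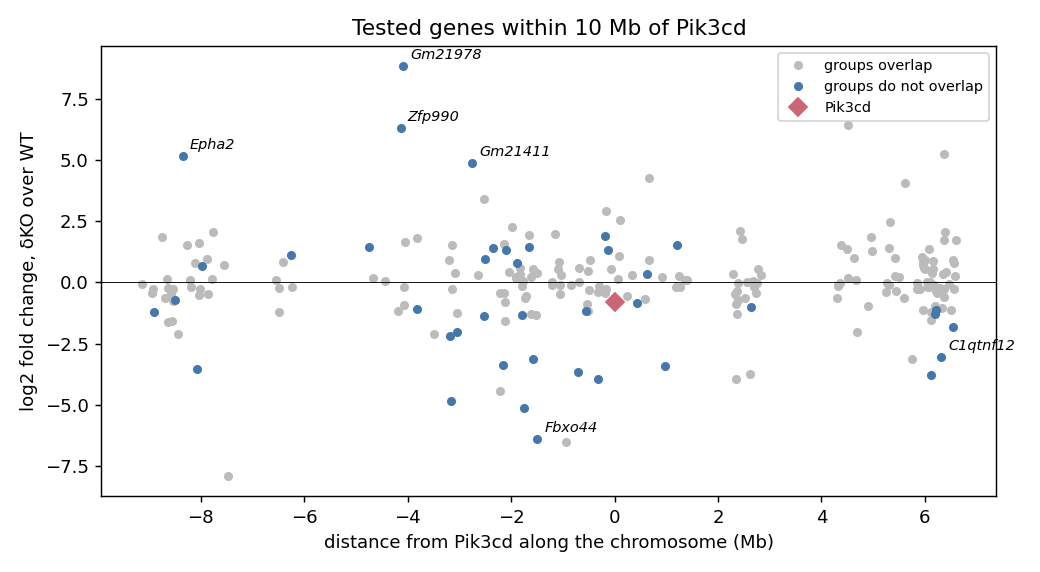
Log2 change of δKO over WT (y axis) against distance from Pik3cd along chromosome 4 (x axis, Mb) for the 233 tested genes within 10 Mb, with genes whose groups do not overlap in blue and Pik3cd as a red diamond. The 40 blue genes lie on both sides of 0, with Zfp990 at 6.33.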

How the data were processed

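RNA-seq was made from sorted LT-HSCs of 3 WT, 3 δKO and 3 TKO libraries, after amplification of cDNA. The authors trimmed reads with Trim Galore 0.3.7, checked them with FastQC 0.11.4, aligned them to mm10 and counted them on genes with STAR 2.5.1b, and deposited raw counts for 47643 genes. They also deposited a normalized signal (counts divided by a size factor per library), used here in 1 alternative. The annotation, the strand setting and the joining of technical runs are not given in the sources used here. Of the gene identifiers, 47224 matched GENCODE M21 without their version.

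Genes were kept with filterByExpr (count minimum 10, minimum total 15), which left 18205. Counts were scaled with TMM factors and fitted with edgeR 4.0.16 (quasi-likelihood, R 4.3.3) to the 9 libraries with a mean for each genotype, leaving 6 residual degrees of freedom. A gene was called when its change exceeded 2-fold and its p, adjusted by Benjamini-Hochberg, was below 0.05. The SE of a log2 change was derived from the test, as its size divided by the square root of the F statistic. The fit was first run on simulated counts, whose recovery of set changes is not given here. The common coefficient of variation between libraries in edgeR was 0.80, so with 3 libraries per group real changes can go uncalled. CPM use TMM-scaled library sizes, and an exact permutation test of 3 against 3 libraries could not go below 0.1. Chi-square per gene between replicates was 135 to 533, where counting error alone gives about 1, so variation between libraries sets the precision.

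Genes named are the class I PI3K subunits and sorting markers, called genes, up to 10 per direction without overlap and at 5 CPM or more by p or (at p under 0.01) by fold, up to 3 per list at p under 0.05, and up to 5 per direction near Pik3cd. Genes without a descriptive symbol were counted and, outside the Pik3cd region, not named. Atg101, Gabarapl1, Procr, Zfp534 and the other Zfp genes beside Zfp990 were chosen after their values were seen. The members and lists were chosen with earlier results of these data known. Alternatives used DESeq2 1.42.0, limma 3.58.1 and other scalings, filters, covariates and samples. Figures used matplotlib.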

Additional observations from a re-analysis of the deposited data

Results flagged for a closer look

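Zfp990, the gene called in δKO LT-HSCs, was also counted in the TKO libraries, which carry the same Pik3cd null allele. These libraries entered the fit that called Zfp990, through the spread and the choice of genes to test, but their own level was compared with no group above. It was at 43.9, 39.2 and 49.9 CPM in the 3 TKO libraries, from 2294, 1347 and 2355 reads, a mean of 44.31 ± 5.39 CPM (SD, n = 3). All 3 lay above the WT libraries, which were at 0.36 to 0.669 CPM, and within the range of the δKO libraries, which were at 31.0 to 60.2 CPM. It was drawn out because it is a signal above the controls in libraries of a group that was not compared. No test of TKO was made here.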

How the results depend on the processing

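The main fit called 1 gene higher and 0 lower. Leaving out 1 library in turn kept both counts (1 and 0 in each case). Genes at an unadjusted p under 0.05 then ranged from 355 to 1454 higher and from 408 to 1628 lower. Both counts were lowest without WT replicate 3 and highest without δKO replicate 2. Called genes numbered 43 higher and 32 lower with DESeq2 on 9 libraries, 27 and 24 with DESeq2 on 6, and 0 and 0 with edgeR on 6. Among alternatives chosen after seeing the data, they numbered 67 and 121 (DESeq2 on 9, unfiltered), 54 and 140 (on 6, unfiltered), 9 and 4 (edgeR's likelihood ratio test) and 0 and 0 (edgeR on 5 libraries, without δKO replicate 1). The causes were not tested.

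Genes at an unadjusted p under 0.05, 664 higher and 612 lower in the main fit, numbered 371 and 717 with upper-quartile factors, 1052 and 1070 without a filter, 436 and 207 with at least 10 counts in every library (67.8% higher), 998 and 869 with DESeq2 on 9 libraries, 398 and 344 with edgeR on 6, and 278 and 240 with voom and quality weights. With a covariate they numbered 373 and 433 (Xist), 284 and 387 (neutrophil markers) and 112 and 174 (genes detected), and with the authors' normalized values in limma 379 and 846. Unfiltered DESeq2 gave 1066 and 1255 on 9 libraries and 862 and 1164 on 6, and genes with a count in all 6 libraries gave 611 and 318. The median of all genes shifted by -0.15 (upper-quartile), -0.13 (voom) and -0.17 (normalized values).

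Replicate numbers are shared between groups, but same-numbered libraries did not deviate together (correlations -0.093 and 0.082, others -0.129 to 0.171), so they were not treated as paired. With the replicate block, 1 gene was called higher and 0 lower, Zfp990 had a log2 change of 6.65 (adjusted p = 0.00366), and 494 and 511 genes were at an unadjusted p under 0.05.

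Of 63 named genes, 53 kept their sign under every alternative that gave a value. Log2 changes reversed for Pik3cb to -0.20 (voom), -0.36 (genes detected), -0.14 (5 libraries) and -0.14 to 0.60 with 1 library left out (the lowest without δKO replicate 1). Those of Pik3ca were -0.14 (upper-quartile), -0.0623 (at least 10 counts), -0.22 (voom), -0.0355 (Xist), -0.33 (neutrophil), -0.32 (genes detected), -0.36 (5 libraries), and -0.355 to 0.257 with 1 library left out (the lowest without δKO replicate 1, and -0.0858 without WT replicate 3). Pik3r3 was at 0.001 with 5 libraries, and Pik3r6 at 0.37 with 5 libraries and with 1 library left out between -1.83 and 0.36 (0.36 without δKO replicate 1, 0.0991 without δKO replicate 2). Kit was at -0.0649 (5 libraries) and at -0.0655 to 0.58 with 1 library left out (the lowest without δKO replicate 1), and Slamf1 at -0.0029 (Xist), -0.31 (neutrophil), -0.21 (5 libraries) and -0.21 to 1.26 with 1 library left out (the lowest without δKO replicate 1). Flt3 was at -1.06 to 0.18 with 1 library left out, the highest without WT replicate 1. With genes detected as a covariate, Phlpp1 was at -0.24, Atp6v0a1 at -0.0663 and Mest at -0.22. Of the 27 pathway lists, megakaryocyte priming genes and imprinted growth regulators kept the sign of their median under all alternatives run.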
